A study of Rattus norvegicus with 12 samples.

Results

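Whole liver was sequenced from rats at the moment of partial hepatectomy (PH), 24 h after a first operation, and the column headed BF was compared with the column headed BA. The comparison used 2 of the 12 columns of the deposited table, with the Control column at 0 h set beside them. Genes averaging 1 RPKM or more across the 12 columns were kept, and the ratio was taken as the log2 of BF over BA after 1 RPKM had been added to each value. Of 14692 genes listed, 8459 were kept, called the genes tested below, and 154 of them were at least 2-fold apart. All rats were male Sprague Dawley, aged 4 to 5 months, with a duodenal catheter and a saline infusion. Control rats had a sham operation. Rats of both fistula groups had the common bile duct drained to the outside through a catheter, and one of these groups also received sodium taurocholate into the duodenum, beginning 12 h before PH.

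The labels conflict on which of the fistula columns carried the infusion. The study's text and captions use BF for the fistula alone and name the infused group BF with BA infusion, or BA replacement. The sample titles carry only the prefixes BF and BA, which under that naming would place the infusion in BA. The sample descriptions and source names instead attach the infusion to the columns headed BF and its absence to those headed BA. Groups are therefore called by their column heading, and every direction below is that of one column against the other. The authors averaged 2 sequencing runs into each column, the first with RNA of 1 rat and the second with pooled RNA of 3 rats. Since each group and time has 1 averaged value, no difference below could be tested or given an error. Read numbers are unknown. RPKM divides reads by transcript length and by the library total. A value is therefore relative to its own column, and comparisons between columns depend on the most abundant genes. In whole liver, fewer cells of a type and less RNA per cell cannot be told apart. The RPKM of all genes summed to 745584 in Control, 769142 in BA and 785092 in BF at 0 h, and the 10 most abundant genes took between 31.5% and 34.3% of each.

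Bile acids are made from cholesterol in hepatocytes, secreted into bile, reabsorbed in the ileum and returned by the portal vein, a loop called the enterohepatic circulation. Returning bile acids repress their own synthesis through the nuclear receptor FXR in liver and intestine, and drainage of bile to the outside interrupts that return. CYP7A1 starts the classic pathway of synthesis and sets its rate, and CYP8B1 makes the branch that leads to cholic acid.

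Before hepatectomy, 36 genes were at least 2-fold higher in BF than in BA, which is 0.426% of the genes tested, and 118 were at least 2-fold lower, which is 1.39%. The higher genes were led by enzymes of bile acid synthesis and by aldo-keto reductases, followed by enzymes of amino acid breakdown and of drug and aldehyde oxidation. The genes with the lowest ratios included genes of DNA replication, cyclin E1, tubulins and the growth-induced transcription factor EGR1. Single genes of other roles, such as ADH6 and SCD1, stood among them. Over all genes tested the median log2 ratio was -0.08, with 3196 genes above 0 and 5240 below, or 37.8% and 61.9%. Counts of list members above or below BA are to be read against these shares. At a ratio of 4-fold, 5 genes were higher and 12 lower. At 1.5-fold the counts were 185 and 449. Rescaling the columns on their median gene shifted all ratios by 0.11 on the log2 scale and gave 61 higher and 96 lower genes, so that 38.9% of the calls were in the higher direction against 23.4% without it. In BF at 0 h, 46 of the 118 lower genes were under 1 RPKM, and 4 of the 36 higher genes were under 1 RPKM in BA.

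**Figure D1:**
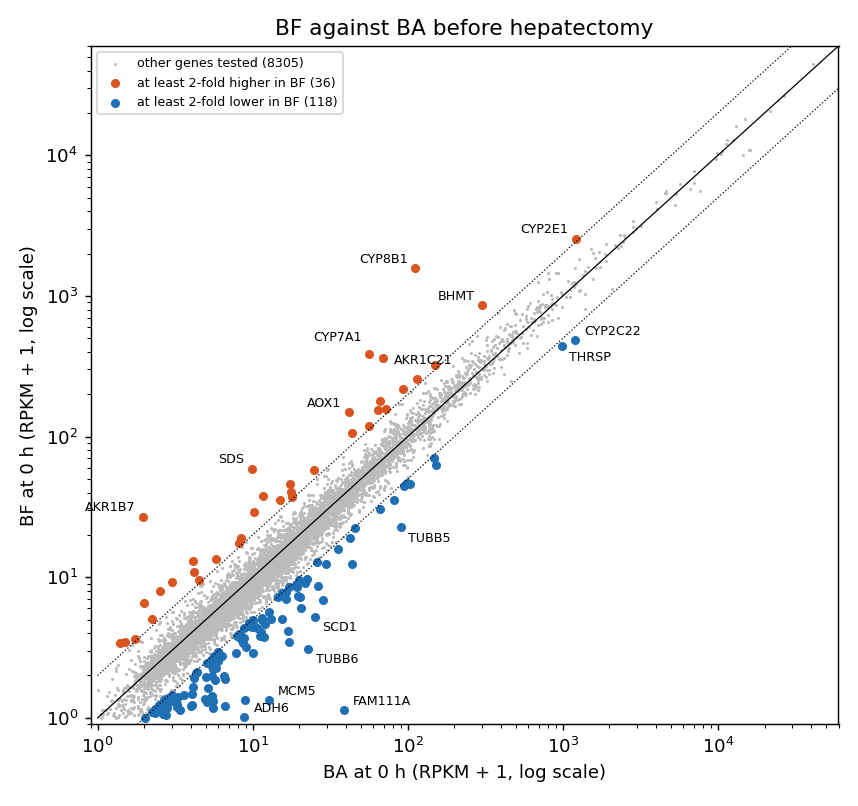
Expression of each of the 8459 genes tested in BA (x axis) and BF (y axis) at 0 h, as RPKM with 1 added on log scales, with 1 point per gene, the line of equality and dotted lines at 2-fold. Orange points are the 36 genes at least 2-fold higher in BF and blue points the 118 at least 2-fold lower, many of which lie near the bottom of the BF axis.

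CYP8B1, the sterol 12-alpha-hydroxylase of cholic acid synthesis, showed the highest ratio of any gene tested. It was at 136 RPKM in Control, 110.2 RPKM in BA and 1576 RPKM in BF, a log2 ratio of BF to BA of 3.83. CYP7A1 was at 60.0 RPKM in Control, 54.9 RPKM in BA and 387 RPKM in BF, a log2 ratio of 2.79. For both enzymes Control lay close to BA, and BF stood apart from the other columns.

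The other enzymes of bile acid synthesis were closer together. Of the 16 measured genes of this list, 11 were higher in BF and 5 lower, with a median log2 ratio of 0.31, and CYP8B1 and CYP7A1 were its only members past 2-fold in the RPKM as deposited. CYP7B1, the oxysterol hydroxylase of the alternative pathway, lay just under 2-fold, at 17.2 RPKM in BA, 35.3 RPKM in BF and 11.2 RPKM in Control. AKR1D1, which reduces the sterol ring, was at 694 RPKM in BA and 1265 RPKM in BF, with Control at 811 RPKM. CYP27A1, which begins the alternative pathway, was at 223 RPKM in BA and 362 RPKM in BF, with Control at 206 RPKM. Members with lower values in BF included HSD3B7, at 97.3 RPKM in BA, 58.6 RPKM in BF and 105 RPKM in Control, and BAAT, which joins bile acids to taurine or glycine, at 1386 RPKM in BA, 1028 RPKM in BF and 1385 RPKM in Control. These members, like AKR1D1 and CYP27A1, were under 2-fold.

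Aldo-keto reductases, enzymes that reduce aldehydes and ketones with NADPH, supplied 3 of the 36 higher genes. AKR1B7 was at 0.21 RPKM in Control, 0.95 RPKM in BA and 25.8 RPKM in BF, a log2 ratio of BF to BA of 3.78. AKR1C21, a hydroxysteroid dehydrogenase, was at 35.5 RPKM in Control, 68.6 RPKM in BA and 359 RPKM in BF, a log2 ratio of 2.37. For these genes Control was the lowest column. AKR7A3, an aflatoxin aldehyde reductase, had another order, with 127 RPKM in Control, 14.0 RPKM in BA and 34.7 RPKM in BF. The AKR1B7 promoter is shown because it is the member with the highest ratio after CYP8B1 and its window holds the half-site AGGTCA to which many nuclear receptors bind. It is given from RefSeq at GRCr8 chr4:64043720-64044019 on the plus strand, from 250 bases before to 50 bases after the gene start, with the match, which is on the reverse strand, in capitals.
AKR1B7: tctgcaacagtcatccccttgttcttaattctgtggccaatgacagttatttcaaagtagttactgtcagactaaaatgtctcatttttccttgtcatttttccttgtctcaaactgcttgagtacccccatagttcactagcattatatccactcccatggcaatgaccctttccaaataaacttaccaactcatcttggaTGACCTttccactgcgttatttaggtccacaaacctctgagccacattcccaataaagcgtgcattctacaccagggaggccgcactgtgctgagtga
Promoters were matched for 25 of the 36 higher genes, and AGGTCA on either strand was present in 6 of them, which is 24%. It was present in 12.5% of the matched promoters of all genes tested, and in 16.2% of all promoters in the RefSeq table. The match is a description of letters and no evidence of binding.

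Enzymes of amino acid and methyl group breakdown made up 5 of the higher genes. SDS, which turns serine into pyruvate, was at 184 RPKM in Control, 8.85 RPKM in BA and 57.9 RPKM in BF, a log2 ratio of BF to BA of 2.58. BHMT, which methylates homocysteine with betaine, was at 843 RPKM in Control, 302 RPKM in BA and 857 RPKM in BF. GPT, alanine aminotransferase, was at 188 RPKM in Control, 42.8 RPKM in BA and 105 RPKM in BF. OAT, ornithine aminotransferase, was at 288 RPKM in Control, 71.2 RPKM in BA and 156 RPKM in BF, and GNMT, which uses S-adenosylmethionine to methylate glycine, was at 533 RPKM in Control, 150 RPKM in BA and 322 RPKM in BF. In contrast to CYP7A1 and CYP8B1, these genes were low in BA, and 4 of the 5 had their highest value in Control. Of the 44 measured genes in the wider list of urea cycle and amino acid breakdown, 41 were above BA in BF and 3 below. The median log2 ratio was 0.36, and no member was at least 2-fold lower. Of all genes tested 37.8% were above BA in BF.

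The largest group among the higher genes held 9 genes of oxidation and conjugation of drugs and aldehydes. AOX1, aldehyde oxidase, was at 151 RPKM in Control, 40.5 RPKM in BA and 148 RPKM in BF, a log2 ratio of BF to BA of 1.84, and its relative AOX3L1 was at 3.23, 0.39 and 2.41 RPKM in the same order. CYP2E1, which oxidizes ethanol and small solvents, was at 2463 RPKM in Control, 1209 RPKM in BA and 2559 RPKM in BF, a log2 ratio of 1.08. The glutathione transferase GSTT3 was at 322 RPKM in Control, 65.3 RPKM in BA and 178 RPKM in BF, and the transferase subunit YC2 at 21.5, 2.03 and 8.28 RPKM in that order. NR1I3, the nuclear receptor CAR that controls many drug-metabolizing genes, was at 77.8 RPKM in Control, 24.0 RPKM in BA and 56.6 RPKM in BF. CYP3A9 was at 91.8 RPKM in Control, 55.5 RPKM in BA and 117 RPKM in BF. In 6 of these 9 genes Control was the highest column, and in the other 3 it lay between. Not all drug-metabolizing genes went this way. CYP2C22 was at 1231 RPKM in Control, 1202 RPKM in BA and 484 RPKM in BF, a log2 ratio of -1.31. GSTM3 was at 4.96 RPKM in Control, 8.02 RPKM in BA and 2.21 RPKM in BF, and NQO1, a quinone reductase, at 14.8 RPKM in Control, 65.4 RPKM in BA and 29.4 RPKM in BF.

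Several genes that respond to fasting and insulin were also higher in BF, and they were grouped after their values had been seen. The wider lists did not both share this direction. Of 24 measured genes of glucose metabolism, 14 were above BA in BF and 10 below, with a median log2 ratio of 0.09. For all genes tested 37.8% were above and the median was -0.08. Of 26 in the list of the ER stress and ATF4 response, 6 were above and 20 below, with a median of -0.16. G6PC, which releases free glucose in the last step of gluconeogenesis, was at 84.4 RPKM in Control, 114 RPKM in BA and 254 RPKM in BF. IGFBP1, a binding protein of insulin-like growth factors that insulin represses, was at 7.62 RPKM in Control, 63.8 RPKM in BA and 155 RPKM in BF, so that both fistula columns were above Control. IGFBP2 was at 4.48 RPKM in Control, 1.52 RPKM in BA and 6.94 RPKM in BF, and TRIB3, a pseudokinase of the ATF4 stress response, at 4.26, 3.14 and 12.0 RPKM in that order. ECH1, an enzyme of fatty acid oxidation, was at 125 RPKM in Control, 91.7 RPKM in BA and 218 RPKM in BF. VNN1, vanin 1, was at 12.6 RPKM in Control, 7.42 RPKM in BA and 18.0 RPKM in BF. PPARA, the nuclear receptor that induces genes of fatty acid oxidation, was lower in BF, at 30.5 RPKM in Control, 28.8 RPKM in BA and 11.5 RPKM in BF. Of the 32 measured genes of fatty acid oxidation, 22 were above BA in BF and 10 below, with a median log2 ratio of 0.29. Of all genes tested 37.8% were above BA in BF.

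The rest of the 36 higher genes shared no evident role. UPP2, uridine phosphorylase 2, was at 32.5 RPKM in Control, 10.6 RPKM in BA and 36.9 RPKM in BF, and PPM1K, a mitochondrial phosphatase, at 25.3, 16.5 and 45.3 RPKM in that order. RGD1309362, listed only as a hypothetical protein, was at 51.6 RPKM in Control, 0.51 RPKM in BA and 2.45 RPKM in BF, so that both fistula columns were far under Control. MGC108823, LOC499782, AGPHD1, CCBP2, RAB30, TOR3A and SLC1A2 were also among them, with log2 ratios of BF to BA between 1.05 and 1.72.

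**Figure D2:**
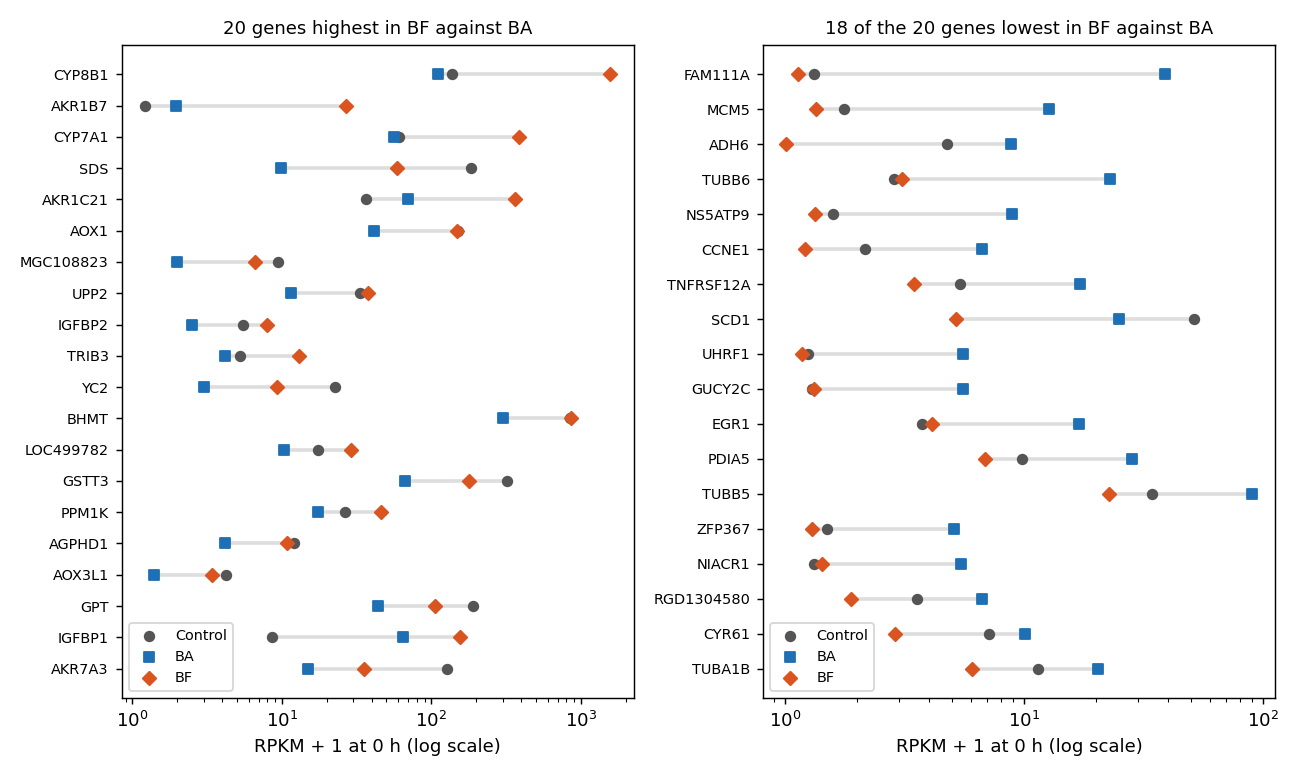
RPKM with 1 added (x axis, log scale) in Control, BA and BF at 0 h for the 20 genes with the highest ratio of BF to BA and for 18 of the 20 with the lowest, with 1 marker per averaged column and a grey bar from the lowest to the highest column. For CYP8B1 and CYP7A1 Control lies near BA, for AOX1 and BHMT it lies on BF, and for most genes of the right panel the BA column stands to the right of both others.

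FAM111A, whose human counterpart acts in DNA replication, had the lowest ratio of all genes tested. It was at 0.32 RPKM in Control, 37.8 RPKM in BA and 0.13 RPKM in BF, a log2 ratio of BF to BA of -5.10. In the table it is described only as a hypothetical protein. With 16 further genes of DNA replication, repair and chromatin assembly it formed the largest group among the 118 lower genes. Its values at 12 h, given below, were unlike those of MCM5 and UHRF1 in this group. MCM5, a subunit of the helicase that opens replication origins, was at 0.76 RPKM in Control, 11.8 RPKM in BA and 0.34 RPKM in BF, a log2 ratio of -3.25. NS5ATP9, whose RefSeq name is Pclaf and which binds the replication clamp PCNA, was at 0.58, 7.86 and 0.33 RPKM in that order. UHRF1, which keeps DNA methylation through replication, was at 0.24, 4.54 and 0.18 RPKM. The highest member of the group in Control was HAT1, a histone acetyltransferase, at 13.7 RPKM, with 20.6 RPKM in BA and 8.12 RPKM in BF. In 16 of these 17 genes Control lay between BF and BA, and in 11 of them BA was at least 2-fold from Control while BF was not. None of the 17 was at least 2-fold from Control in BF alone.

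Cyclins and their regulators numbered 8 among the lower genes. CCNE1, cyclin E1, which drives entry into S phase, was at 1.16 RPKM in Control, 5.66 RPKM in BA and 0.21 RPKM in BF, a log2 ratio of BF to BA of -2.46. CCNE2 was at 1.29, 5.55 and 0.98 RPKM in that order, and CDC2, the mitotic kinase now named Cdk1, at 0.99, 4.72 and 0.87 RPKM. CCND1, cyclin D1, which carries growth signals into the cell cycle, had another order, with 24.6 RPKM in Control, 14.3 RPKM in BA and 4.03 RPKM in BF. With 1 RPKM added, BF alone was at least 2-fold from Control for CCND1, and BA alone for CCNE1, CCNE2 and CDC2. For CCNE1 the log2 ratio of BF to Control was -0.84. Its values in Control and BF were so low that the added RPKM shrinks this ratio. Of 12 genes of mitosis and the spindle, the highest value in any column at 0 h was 7.38 RPKM, in BA. TOP2A, topoisomerase II alpha, was at 0.62 RPKM in Control, 2.11 RPKM in BA and 0.32 RPKM in BF, and BUB1, a spindle checkpoint kinase, at 0.64, 1.75 and 0.35 RPKM. Of the 33 measured genes in the cell cycle list, 30 were below BA in BF and 10 at least 2-fold so, with a median log2 ratio of -0.68. After rescaling on the median gene 28 were below and 8 at least 2-fold so. Without rescaling, 61.9% of all genes tested were below BA in BF and 1.39% at least 2-fold so.

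The promoters of MCM5, NS5ATP9 and CDC2 are shown because these genes were low in BF and Control together and because each window holds a match to the site of E2F, the factor family that turns on S-phase genes. The letters searched were TTTCCCGC, TTTGGCGC, TTTCGCGC and TTTGCCGC on both strands. Matches are in capitals, and overlapping matches on opposite strands run together. Sequences are from RefSeq, GRCr8, from 250 bases before to 50 bases after the start. They lie at chr19:13488563-13488862, chr8:75315467-75315766 and chr20:19265043-19265342, all on the plus strand.
MCM5: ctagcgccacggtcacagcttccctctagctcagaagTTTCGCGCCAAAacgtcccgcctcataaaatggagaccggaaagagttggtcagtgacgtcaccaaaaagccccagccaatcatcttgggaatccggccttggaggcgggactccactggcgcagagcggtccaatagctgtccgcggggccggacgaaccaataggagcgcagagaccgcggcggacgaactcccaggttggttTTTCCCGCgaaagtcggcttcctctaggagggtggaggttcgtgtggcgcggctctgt
NS5ATP9: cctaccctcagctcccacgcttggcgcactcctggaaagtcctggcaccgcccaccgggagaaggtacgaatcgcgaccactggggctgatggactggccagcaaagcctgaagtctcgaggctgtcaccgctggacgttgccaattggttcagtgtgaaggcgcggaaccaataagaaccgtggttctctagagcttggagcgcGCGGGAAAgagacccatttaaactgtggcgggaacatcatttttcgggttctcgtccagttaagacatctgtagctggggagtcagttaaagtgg
CDC2: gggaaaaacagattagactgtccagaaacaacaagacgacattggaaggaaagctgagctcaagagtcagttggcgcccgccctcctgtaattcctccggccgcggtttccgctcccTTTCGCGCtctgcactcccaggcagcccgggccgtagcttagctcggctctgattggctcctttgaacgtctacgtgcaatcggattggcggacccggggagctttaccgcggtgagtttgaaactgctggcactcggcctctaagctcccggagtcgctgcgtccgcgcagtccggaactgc
Promoters were matched for 91 of the 118 lower genes, and 13 of them held an E2F match, which is 14.3%. The share was 4.48% among the 6857 matched promoters of all genes tested, 2.14% among all promoters of the table, and 1 of 25 among the higher genes. The other lower genes with a match were ZFP367, RGD1310778, CDCA7, TIMELESS, CDR2, BARD1, RANBP1, DNMT1, CDC25A and NOL5. CHR elements (TTTGAA or TTCGAA), found in promoters of mitotic genes, were present in 30.8% of the lower, 24% of the higher and 13.4% of all genes tested, and CCAAT in 50.5%, 48% and 39.2%. In all, 10 motifs were searched after the values had been seen, and the shares are a description only. HNF1 half-sites (GTTAAT) were in 16% of the higher, 4.40% of the lower and 4.68% of all genes tested. AP-1 sites (TGACTCA or TGAGTCA) were in 16%, 4.40% and 3.46%, and TATAAA in 16%, 12.1% and 7.01%. CACGTG was in 8%, 6.59% and 9.81%, TGACGTCA in 0%, 5.49% and 3.37%, and TTGCGCAA in 0.263% of all genes tested and in no member.

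Tubulins, the subunits of microtubules, supplied 6 of the lower genes. TUBB6 was at 1.86 RPKM in Control, 21.8 RPKM in BA and 2.09 RPKM in BF, a log2 ratio of BF to BA of -2.89. TUBB5 was at 33.5, 89.0 and 21.6 RPKM in that order, and TUBA1B at 10.4, 19.4 and 5.07 RPKM. TUBA1C, TUBA4A and TUBB2C had log2 ratios between -1.15 and -1.07 and reached 97.4 RPKM in BA. Tubulin genes are close relatives in sequence, and reads can be divided among them differently by different counting methods. Galectin 3, LGALS3, in the same list of actin, tubulin and keratin genes, was at 17.1 RPKM in Control, 34.4 RPKM in BA and 14.9 RPKM in BF. Of the 35 measured genes of that list, 29 were below BA in BF, with a median log2 ratio of -0.38, against 61.9% of all genes tested.

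Transcription factors and other genes that cells switch on quickly after a growth or stress signal were low in BF as well. EGR1 was at 2.73 RPKM in Control, 15.98 RPKM in BA and 3.12 RPKM in BF, a log2 ratio of BF to BA of -2.04. JUN, a subunit of AP-1, was at 30.1 RPKM in Control, 25.5 RPKM in BA and 7.70 RPKM in BF, and DUSP6, a phosphatase of ERK, at 38.5, 18.7 and 6.39 RPKM in that order. CYR61, a secreted matrix protein, was at 6.12 RPKM in Control, 9.09 RPKM in BA and 1.87 RPKM in BF, and BTG2 at 5.89, 18.3 and 7.53 RPKM. EGR1 and BTG2 were near Control in BF, whereas JUN, DUSP6 and CYR61 were well under it. TNFRSF12A, the receptor of the cytokine TWEAK, was at 4.37 RPKM in Control, 16.1 RPKM in BA and 2.47 RPKM in BF. OSMR, the oncostatin M receptor, was at 0.88, 12.2 and 4.08 RPKM in that order. Of 27 measured immediate early genes, 21 were below BA in BF, 5 at least 2-fold so, with a median log2 ratio of -0.53. Of all genes tested 61.9% were below BA in BF and 1.39% at least 2-fold so.

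Genes of the nucleolus and of RNA processing formed a tighter group. There were 8 of them among the lower genes, with ratios of BA to BF between 2.00-fold and 2.76-fold, and Control lay between the fistula columns in every one. NOL5A, which guides methylation of ribosomal RNA, was at 11.5 RPKM in Control, 19.1 RPKM in BA and 6.29 RPKM in BF. Its partner NOL5 was at 15.7, 25.1 and 11.8 RPKM in that order, and the spliceosome protein SNRPD1 at 8.24, 10.5 and 4.11 RPKM. For 7 of the 8 neither fistula column was 2-fold from Control. These 8 genes were grouped after their values had been seen.

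Some genes of fatty acid synthesis and nearly all of those of cholesterol synthesis were below BA in BF. SCD1, which makes monounsaturated fatty acids, was at 50.4 RPKM in Control, 24.1 RPKM in BA and 4.21 RPKM in BF, a log2 ratio of BF to BA of -2.27. THRSP, a lipogenic protein, was at 1060 RPKM in Control, 989 RPKM in BA and 439 RPKM in BF. THRSP was the only member past 2-fold in the list of fatty acid and triglyceride synthesis. The list does not hold SCD1 but holds the separate entry SCD, which was under 2-fold. Of its 19 measured genes 13 were below BA in BF and 6 above, with a median log2 ratio of -0.23, against 61.9% below and a median of -0.08 for all genes tested. Of the 24 measured genes of cholesterol synthesis, 23 were below BA in BF, with a median log2 ratio of -0.39. After rescaling on the median gene 19 were below. HMGCS1, an early enzyme of the pathway, was at 211 RPKM in Control, 992 RPKM in BA and 833 RPKM in BF, and LSS, which closes the sterol rings, at 31.5, 107 and 70.9 RPKM in that order, both under 2-fold between the fistula columns. The median log2 ratio of the list to Control was 1.35 in BA and 0.97 in BF, and these values share the Control column.

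Exporters and other single genes completed the lower set. ADH6, an alcohol dehydrogenase, was at 3.74 RPKM in Control, 7.85 RPKM in BA and 0.01 RPKM in BF. ABCG2, an exporter of drugs, was at 3.77, 7.72 and 2.42 RPKM in that order, and ABCB1B, a P-glycoprotein, at 4.54, 7.38 and 2.79 RPKM. These were the only members past 2-fold among 15 measured transporters of bile acids and bile, of which 9 were above BA in BF and 6 below, with a median log2 ratio of 0.26. SLC10A1, the main uptake transporter of conjugated bile acids, was at 616 RPKM in Control, 446 RPKM in BA and 536 RPKM in BF. A few weakly expressed genes encoded products of the gut lining or a receptor of such a product, and their columns did not share 1 order. GUCY2C, the receptor of guanylin, was at 0.29, 4.53 and 0.32 RPKM, and its ligand GUCA2A at 3.54 and 1.03 RPKM in Control and BA and listed at 0 in BF. ZG16 was at 5.79, 1.64 and 0.06 RPKM, and REG3G, an antibacterial lectin, at 4.82, 1.37 and 0.13 RPKM. GUCA2A, ZG16 and REG3G were highest in Control, whereas GUCY2C was lowest there. At 12 h after PH GUCY2C was at 4.63 RPKM in Control, 8.44 RPKM in BA and 12.25 RPKM in BF. In Control at 4 h ZG16 and REG3G were listed at 0 and GUCA2A was at 0.15 RPKM. PER2, a repressor of the circadian clock, was at 8.32, 8.47 and 3.51 RPKM in Control, BA and BF at 0 h. PDIA5, a protein folding enzyme of the endoplasmic reticulum, was at 8.80 RPKM in Control, 27.2 RPKM in BA and 5.86 RPKM in BF, ZFP367 at 0.49, 4.11 and 0.29 RPKM, and the niacin receptor NIACR1 at 0.32, 4.43 and 0.42 RPKM. RGD1304580, a hypothetical protein, was at 2.55, 5.67 and 0.88 RPKM. Of the 118 lower genes, 44 were placed in no group of function.

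At the edge of the 2-fold threshold, SLC1A2, CYP3A9 and TOR3A were the higher genes nearest to it, with log2 ratios from 1.05 to 1.08. CYP7B1, CTH and PBSN lay just outside, with ratios from 0.98 to 1.00. On the lower side BCMO1, NXT1 and RGD1563706 were just inside, each at -1.0, and BASP1, WARS and UBE2C just outside, each between -0.99 and -0.98. SLC1A2, a glutamate transporter, was at 14.8 RPKM in Control, 17.0 RPKM in BA and 36.3 RPKM in BF. BCMO1, which cleaves beta-carotene, was at 14.8, 8.43 and 3.70 RPKM in that order, and CTH, which makes cysteine, at 1029, 380 and 756 RPKM.

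The Control column separated the members into classes. Of the 36 higher genes, BA alone was at least 2-fold from Control in 15, BF alone in 9, both in 6 and neither in 6. Among all genes tested, 4.02% were at least 2-fold from Control in BA and 3.89% in BF, in either direction, but the members had to differ between the fistula columns and these shares are no reference for them. The 9 higher genes with BF alone apart included CYP8B1, CYP7A1, AKR1B7 and AKR1C21. The 15 with BA alone apart included AOX1, BHMT, GSTT3, GPT and CYP2E1. Of the 118 lower genes, BA alone was apart from Control in 41, BF alone in 18, both in 8 and neither in 51, and Control lay between the fistula columns in 81. Genes with BA alone apart included FAM111A, MCM5, TUBB6 and EGR1, and those with BF alone apart included CCND1, JUN, PPARA, CYP2C22 and THRSP. Both fistula columns share the Control column, and their distances from it are not independent.

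The same genes were then followed after PH. At 4 h the RPKM of BA summed to 982826, with 53.2% in the 10 most abundant genes, beside 765308 and 37.8% in BF. Ratios at 4 h thus compare columns of unlike makeup, and the median log2 ratio of all genes tested was 0.15 at that time. Of the 36 higher genes, 25 were above BA in BF at 4 h, 24 at 12 h and 24 at 24 h, or 69.4%, 66.7% and 66.7%, against 67.5%, 47.6% and 62.0% of all genes tested at these times. At least 2-fold higher again were 11 at 4 h, 6 at 12 h and 8 at 24 h, against 2.39%, 1.16% and 0.887% of all genes. CYP8B1, AKR1B7 and CYP7A1 were the only ones at least 2-fold higher at all 4 times. CYP8B1 had 919, 767 and 1009.8 RPKM in BF at 4, 12 and 24 h and 161, 119 and 189.7 RPKM in BA, and Control stayed between 135 and 171 RPKM. CYP7A1 had 13.8, 136 and 334 RPKM in BF and 1.81, 3.17 and 68.8 RPKM in BA at these times, beside 4.59, 8.53 and 57.3 RPKM in Control. All columns of CYP7A1 were thus lower at 4 h than at 0 h, and BF remained the highest throughout. AKR1B7 reached 247 RPKM in BF at 24 h, with 37.2 RPKM in BA and 63.2 RPKM in Control. BHMT was more than 2-fold higher at 0, 4 and 24 h but not at 12 h, with log2 ratios of 1.5, 1.76, 1.56 and, at 12 h, -0.57.

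**Figure D3:**
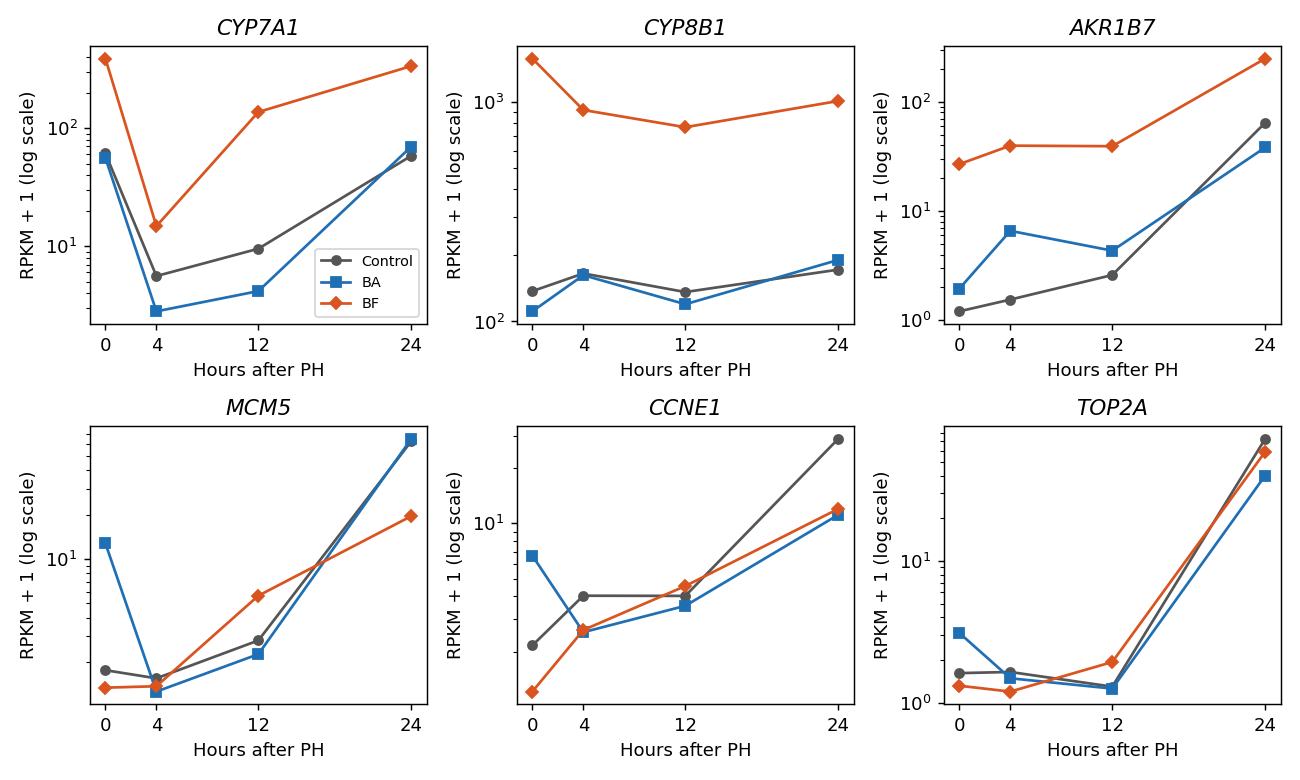
RPKM with 1 added (y axis, log scale) against hours after PH for CYP7A1, CYP8B1 and AKR1B7 (top) and MCM5, CCNE1 and TOP2A (bottom), with 1 averaged column per point and no error. In the upper row BF lies above the other groups at all 4 times, and in the lower row BA is highest at 0 h and all groups are highest at 24 h.

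For the lower genes, the share below BA in BF lay above that of all genes at 4 h and under it at 12 and 24 h, a difference that could not be tested. Below BA in BF were 67 of the 118 at 4 h, 40 at 12 h and 35 at 24 h, or 56.8%, 33.9% and 29.7%, against 32.2%, 52.0% and 37.6% of all genes tested. At least 2-fold lower again were 19 at 4 h, 6 at 12 h and 5 at 24 h, against 2.33%, 0.757% and 0.969% of all genes. TNFRSF21, a death receptor, was the only gene at least 2-fold lower at all 4 times, with 7.81, 110.3, 36.4 and 19.1 RPKM in BA and 2.71, 54.0, 16.6 and 7.94 RPKM in BF from 0 to 24 h. Control was at 1.05, 37.0, 33.2 and 15.2 RPKM at these times. Genes lower at both 0 h and 4 h included SCD1, with a log2 ratio of -2.76 at 4 h, and FABP4, a fatty acid binding protein, with -3.08. FAM111A was near 0 at 4 h, with 0.11 RPKM in BA and 0.12 RPKM in BF. At 12 h it was again apart, with 52.5 RPKM in BA and 0.96 RPKM in BF. By 24 h BA had 11.4 RPKM, BF 18.1 RPKM and Control 22.6 RPKM. By contrast, MCM5 and UHRF1, placed in the same group as FAM111A, were at 1.26 and 0.33 RPKM in BA at 12 h. MCM5 was at 64.2 RPKM in BA, 18.5 RPKM in BF and 61.9 RPKM in Control at 24 h.

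**Figure D4:**
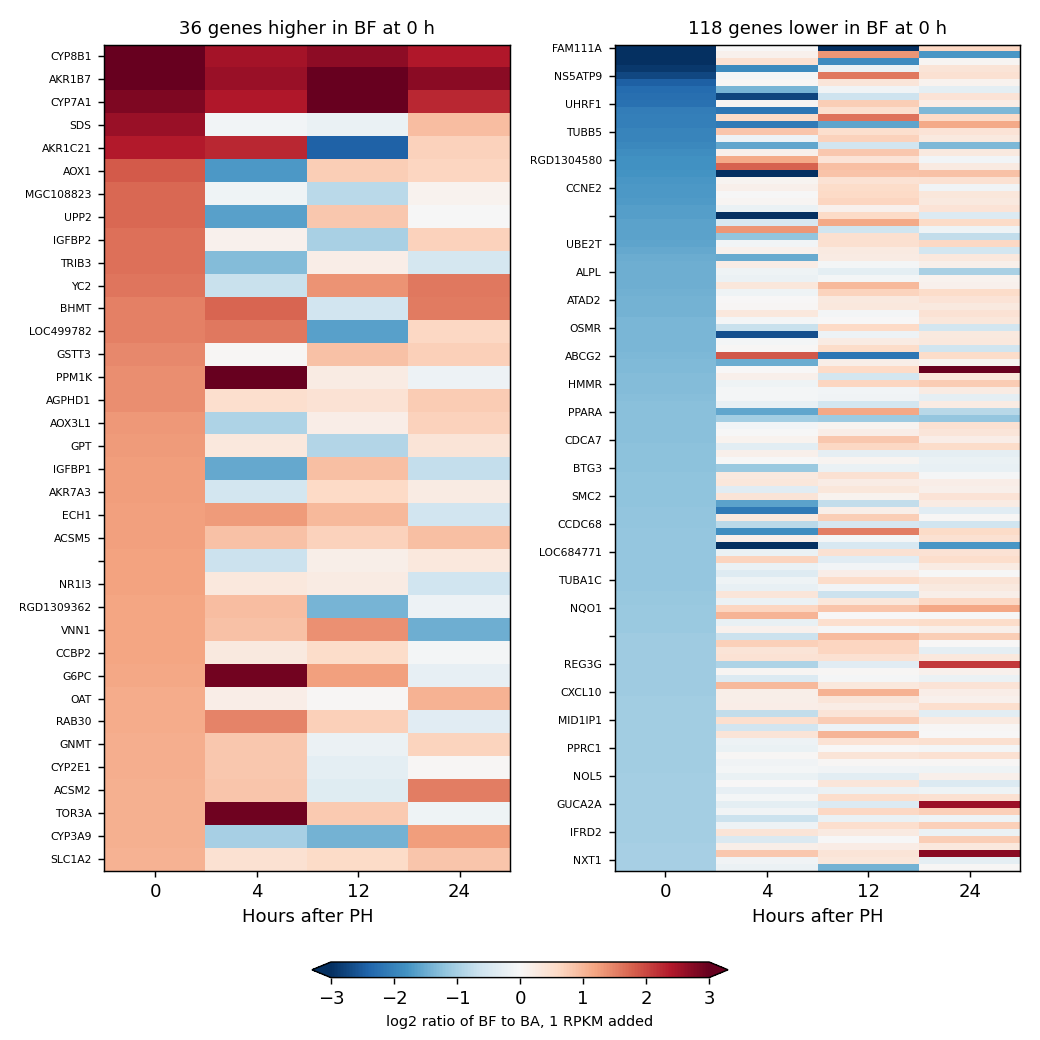
The log2 ratio of BF to BA (colour, with 1 RPKM added) at 0, 4, 12 and 24 h after PH for the 36 genes higher and the 118 genes lower in BF at 0 h, ordered by the ratio at 0 h, with only some genes named. The 3 top genes on the left stay red at all times, and most of the 118 lower genes are pale after 0 h.

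Most of the lower genes were at least 2-fold higher in Control at 24 h after PH than at 0 h, and at 4 and 12 h a minority were. In Control, 88 of the 118 were at least 2-fold higher at 24 h than at 0 h, against 8.29% of all genes tested, and their median log2 ratio was 2.12 against 0.21. At 4 h 21 were at least 2-fold higher and 12 lower than at 0 h, against 4.01% and 5.19% of all genes, with a median of -0.03. At 12 h 34 were higher and 12 lower, against 3.96% and 9.94%, with a median of 0.07. Genes that are low at 0 h could enter through their later values. A limit was therefore added after the values had been seen, and among the 84 with at least 1 RPKM in Control at 0 h the count was 55, against 6.67% of all genes above that level. All 17 genes of DNA replication, repair and chromatin and all 12 of mitosis were among the 88. In Control at 0 h the first ranged from 0.17 to 13.7 RPKM and the second from 0.19 to 3.29 RPKM. Those under 1 RPKM could have passed the filter through their later columns, so these 2 counts are not independent of the filter. CDC2 reached 136 RPKM in Control at 24 h, 76.0 RPKM in BA and 113 RPKM in BF, beside the 4.72 RPKM of BA before PH. Of the 36 higher genes, 25 were at least 2-fold lower at 12 h than at 0 h in Control, against 9.94% of all genes, with a median log2 ratio of -1.74 against -0.16. The other times were less one-sided, with 5 lower and 6 higher at 4 h and a median of -0.02, and with 13 lower and 5 higher at 24 h and a median of -0.40. Of all genes 3.03% were lower at 24 h. SDS, for example, was at 184 RPKM in Control at 0 h and at 6.6 RPKM at 12 h.

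Among 31 lists of gene function, those with the highest medians of the log2 ratio of BF to BA at 0 h were urea cycle and amino acid breakdown (0.36), cytochrome P450 families 1 to 3 (0.33), bile acid synthesis (0.31), fatty acid oxidation (0.29), and bile acid transport and phase II conjugation (both 0.26). Those with the lowest were the cell cycle (-0.68), immediate early genes (-0.53), cholesterol synthesis (-0.39), actin, tubulin and keratin (-0.38) and heat shock chaperones (-0.32). Of these lists, heat shock chaperones had no member past 2-fold, although 13 of 14 were below BA in BF. HSP90AA1 was at 20.6 RPKM in Control, 21.6 RPKM in BA and 11.6 RPKM in BF. In the list of bile acid sensing NR1I3 alone was past 2-fold among 13 genes, and NR0B2, the repressor SHP, was at 42.3, 12.7 and 20.2 RPKM in the same order. NR1H4, which encodes FXR, was at 39.7, 47.4 and 52.2 RPKM. Acute phase genes were near each other in the fistula columns, with a median log2 ratio of 0.00 over 25 genes and none past 2-fold, while both columns were above Control with medians of 1.73 in BA and 1.5 in BF. LCN2, lipocalin 2, was at 3.03 RPKM in Control, 1388 RPKM in BA and 808 RPKM in BF. Subunits of NADH dehydrogenase (35 genes) and of cytochrome c oxidase (10 genes) had medians of 0.00 and 0.06, cytosolic ribosomal proteins (59 genes) -0.17 and proteasome subunits (36 genes) -0.18, each with no member past 2-fold. Also without a member past 2-fold were negative acute phase proteins (0.10), apolipoproteins (0.15) and iron handling (0.00).

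In the remaining lists 1 to 3 members were past 2-fold. The median was -0.23 for fatty acid synthesis, 0.09 for glucose metabolism, 0.09 for complement and coagulation, 0.05 for extracellular matrix and 0.04 for the growth hormone and IGF axis. It was 0.00 for interferon response genes and -0.08 for chemokines and cytokines, where the member past 2-fold was CXCL10, at 3.33 RPKM in Control, 3.39 RPKM in BA and 1.11 RPKM in BF. IL-6 and STAT3 signalling had a median of -0.02, the circadian clock and NRF2 targets -0.11 each, and the ER stress response -0.16. Medians between -0.12 and 0.04 took the other sign under at least 1 rescaling for NRF2 targets, chemokines and cytokines, IL-6 signalling, NADH dehydrogenase, acute phase, interferon, iron, bile acid sensing and the IGF axis.

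**Figure D5:**
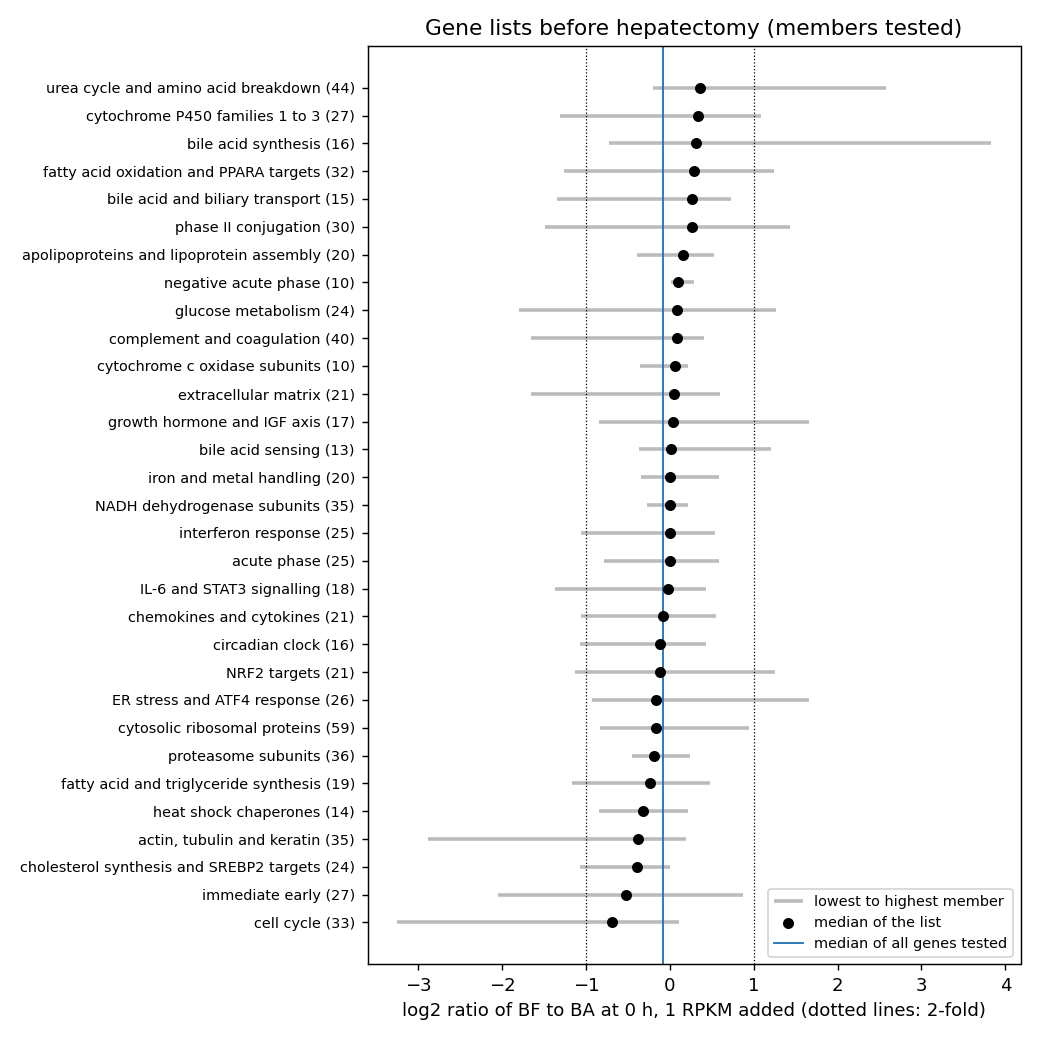
Median log2 ratio of BF to BA at 0 h (points, with 1 RPKM added) for 31 lists of gene function, with grey bars from the lowest to the highest member and the number of members tested in brackets; the vertical line is the median of all genes tested and dotted lines mark 2-fold. The cell cycle and immediate early lists have the lowest medians, and urea cycle and amino acid breakdown the highest.

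Markers of cell types were compared as well, since whole liver was taken. None of the measured markers in 12 lists was 2-fold apart between BF and BA. Under that limit, 10 of 11 measured markers of stellate cells and fibroblasts were above BA in BF and 1 below. Their median log2 ratio was 0.32. All 3 measured erythroid markers were above, with a median of 0.48. The medians of the other lists lay between -0.27 and 0.12. Of all genes tested 37.8% were above BA in BF. Hepatocyte markers were high in all columns, with a sum of 138502 RPKM over 8 genes in Control, 122585 RPKM in BA and 125461 RPKM in BF. The 13 cholangiocyte markers found summed to 49.0, 46.2 and 46.8 RPKM in that order, 14 macrophage markers to 649, 595 and 572 RPKM, 7 endothelial markers to 74.0, 68.4 and 71.2 RPKM, and 12 markers of stellate cells and fibroblasts to 96.1, 90.7 and 119 RPKM. Neutrophil markers (14 genes, 1 of them at 0 in all 3 columns) summed to 10.2, 31.4 and 29.4 RPKM, T and NK cell markers (11 genes) to 27.0, 20.03 and 21.6 RPKM, B cell markers (6 genes) to 4.95, 2.85 and 2.81 RPKM, and mesothelial markers (4 genes) to 1.94, 5.36 and 4.49 RPKM. Erythroid markers (6 genes), almost all of it from the globins HBB and HBA-A2, summed to 495 RPKM in Control, 195 RPKM in BA and 286 RPKM in BF, whereas NFE2, a transcription factor of red cell and platelet precursors, was among the lower genes at 1.14, 10.9 and 2.77 RPKM. Pancreatic acinar markers (14 genes) summed to 23.6, 6.22 and 8.16 RPKM, and duodenal markers (7 genes) to 552, 361 and 417 RPKM, most of it from APOA4, which liver also makes. The part of these cells in the differences above was not tested.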

How the data were processed

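Livers of 3 groups of rats were sequenced at 0, 4, 12 and 24 h after PH. Per the labels, poly(A) libraries were read in 50 cycles, and the submitters' processing notes name CASAVA, Bowtie 0.12.2 and the builds rn4 and mm8 without their roles. The authors computed RPKM and deposited 1 table with 2 decimals, in which each of the 12 columns is their mean of 2 sequencing runs. All 12 columns were mapped to groups by the sample titles. RPKM is relative to the library total, so abundant genes lower the rest, and depth, counts and spread between rats are unknown. No column had a replicate, and no test was run.

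Log2 ratios were taken after adding 1 RPKM, which understates changes of weak genes, for genes averaging 1 RPKM or more across the 12 columns, and 2-fold was the limit. One gene, TCF19, had no value. Named genes were the 20 highest and 20 lowest ratios, members of 31 lists of function and 12 of markers past 2-fold or otherwise the 3 with the largest ratios, and the 3 genes on each side of the limit. Other genes were named after their values were seen. Some genes selected by this rule are not reported here. Of 1102 listed symbols 972 were found. The members, lists and tests were chosen with earlier results of these data known, and the groups of members by function and the motifs after the values were seen. Symbols were matched to RefSeq names and promoters of GRCr8. The computation was tested on simulated columns. Alternatives were pseudocounts of 0.1 and 5 RPKM, no filter, a 12-column mean of 5 RPKM or more, and rescaled columns. Python 3.11.15, pandas 2.3.3, numpy 2.4.6 and matplotlib 3.10.9 were used.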

Additional observations from a re-analysis of the deposited data

Results flagged for a closer look

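Some of the 154 genes that were at least 2-fold apart before PH were at least 2-fold apart the other way at a later time. Each value below is a log2 ratio of BF to BA from 1 averaged column per group, and the difference between times was not tested for any gene. At 4 h the 10 most abundant genes took 53.2% of the RPKM in BA and 37.8% in BF, so these columns were unlike in makeup.

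At 4 h, 4 of the 36 genes that had been higher in BF were lower, or 11.1%, against 2.33% of all genes tested. The aldehyde oxidase AOX1 had a ratio of 1.84 at 0 h and -1.71 at 4 h, with 75.6 RPKM in BA, 22.4 RPKM in BF and 119.7 RPKM in Control at 4 h. IGFBP1 had 1.26 and -1.54, UPP2 1.71 and -1.63, and TRIB3 1.65 and -1.30. At 12 h, 4 higher genes were lower, or 11.1%, against 0.757% of all genes. AKR1C21, a hydroxysteroid dehydrogenase, had 2.37 at 0 h and -2.42 at 12 h, with 179.7 RPKM in BA, 32.8 RPKM in BF and 76.6 RPKM in Control at 12 h. LOC499782 had 1.5 and -1.63, CYP3A9 1.07 and -1.41, and RGD1309362 1.19 and -1.40. At 24 h VNN1 alone did so, or 2.78%, against 0.969% of all genes, with 1.17 at 0 h and -1.45 at 24 h.

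Of the 118 genes that had been lower in BF, 5 were higher at 4 h, or 4.24%, against 2.39% of all genes. Cyclin D1, CCND1, had a ratio of -1.61 at 0 h and 1.32 at 4 h, with 0.83 RPKM in BA, 3.58 RPKM in BF and 9.33 RPKM in Control at 4 h. CYR61 had -1.81 and 1.77, ABCG2 -1.35 and 1.86, RGD1304580 -1.83 and 1.14, and CDR2 -1.12 and 1.02. At 12 h 8 were higher, or 6.78%, against 1.16% of all genes. Among them were the replication genes MCM5 (-3.25 at 0 h and 1.32 at 12 h) and NS5ATP9 (-2.74 and 1.59) and the mitotic kinase CDC2 (-1.61 and 1.15). The transcription factor EGR1 had -2.04 and 1.62, the lipid regulators PPARA -1.26 and 1.17 and THRSP -1.17 and 1.54, the chemokine CXCL10 -1.06 and 1.05, and the thioesterase ACOT5 -1.04 and 1.02. MCM5 was at 1.26 RPKM in BA, 4.63 RPKM in BF and 1.80 RPKM in Control at 12 h, levels well under those of 24 h.

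At 24 h 6 of the lower genes were higher, or 5.08%, against 0.887% of all genes, and 3 of them are products of the gut lining. ZG16 had -1.32 at 0 h and 3.18 at 24 h, REG3G -1.07 and 2.13, and GUCA2A -1.02 and 2.56. At 24 h BF was at 8.05 RPKM for ZG16, 10.6 RPKM for REG3G and 5.39 RPKM for GUCA2A, while BA was listed at 0 for ZG16 and had 1.65 and 0.08 RPKM for the others. BCMO1, which cleaves beta-carotene, had -1.0 and 2.71, PDIA5 -2.04 and 1.14, and NQO1 -1.12 and 1.15.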

How the results depend on the processing

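With 0.1 RPKM added in place of 1, 65 genes were at least 2-fold higher and 234 lower in BF at 0 h, with all 36 and 118 among them. The same direction was then found in 45, 44 and 44 higher genes and in 132, 83 and 73 lower genes at 4, 12 and 24 h. With 5 RPKM added, 23 genes were higher and 30 lower, all of them among the 36 and 118, and the same direction was found in 15 higher genes at 4 h and 15 at 12 h and in 14, 12 and 5 lower genes at the 3 times. Rescaling on the median gene gave 61 higher genes, which include the 36, and 96 lower genes, all among the 118, with 41, 44 and 39 higher genes in the same direction. The counts of higher and lower genes stayed within 1.5 times without a filter (36 and 120), for genes averaging 5 RPKM or more (30 and 84) and after rescaling without the 10 most abundant genes (36 and 120). No ratio of the 40 genes with the most extreme ratios changed sign under the alternatives that gave them a value, which left out 7 genes under the filter at 5 RPKM, and 11 fell under 2-fold, all with 5 RPKM added. What the unknown depth limits could not be computed. No paired analysis was possible because each group and time has 1 averaged column.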
